A study of Mus musculus with 28 samples.

Results

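The comparison set 4 liver arrays of Fah-/- p53-/- mice kept without NTBC against 4 liver arrays of Fah-/- p53-/- mice on the full dose. These 8 arrays were chosen by genotype and dose from the 28 mouse liver arrays of the series, and 20308 genes were tested on them. All mice lacked Fah, and those compared here lacked p53 (gene Trp53) as well. The full dose was 7.5 mg/L NTBC in the drinking water. Another Fah-/- p53-/- group of 4 arrays had a reduced dose, given as 25% of full in the sample labels and as 2.5% for 3 months in the treatment notes. Fah-/- mice with p53, also 4 arrays without NTBC and 4 at full dose, give the nearest comparison. Neither the time off the drug nor the age, strain or make of the alleles is given in the sources used here, nor whether each array came from its own animal. The p-values therefore measure the spread between arrays, which may be technical.

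Fah is the final enzyme of tyrosine breakdown, and its loss causes hereditary tyrosinemia type I. NTBC (nitisinone) blocks Hpd, an earlier enzyme of the pathway, so that the toxic metabolites upstream of Fah do not form. Without the drug these electrophilic metabolites injure hepatocytes, the main cells of the liver. The transcription factor p53 answers DNA damage by inducing genes of cell cycle arrest and apoptosis, among them Cdkn1a, which encodes the cell cycle inhibitor p21. The series was set up to examine disruption of this DNA damage pathway at several levels in injured liver.

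Arrays without NTBC were brighter: the 75th percentile of the processed signal was 455.6 to 494.5 without NTBC and 251.8 to 296.1 at full dose. Levels are therefore given as log2 signal relative to that percentile. Each comes from 1 probe, so levels of different genes are not set against each other. All 4 no-NTBC arrays were female by their transcripts and all 4 full-dose arrays male. Xist, the RNA of the inactive X chromosome, was at 3.07 to 3.69 on the no-NTBC arrays and not well above background at full dose. The Y-linked Ddx3y was at 1.90 to 1.96 at full dose and not well above background without NTBC. The no-NTBC arrays lay on slides 5 and 6, read on 1 scan day, and the full-dose arrays on slide 4, read on another. Dose, sex, slide and scan day thus coincide and cannot be told apart in what follows. A term for sex could be estimated only in the Fah-/- p21-/- group, whose 2 female and 2 male arrays were also on different slides. Calls that it ends among the genes named are given beside them or with the limits at the end. With that term 54.5% of genes were called, 21.9% higher and 32.7% lower. Replicate 1 without NTBC stood apart from its group, with a standard deviation over genes of 0.794 from the other 3, against 0.375 to 0.443 for those. Its part in a result is given beside it.

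Of the 20308 genes, 14162 (69.7%) were called at an adjusted p under 0.05 in limma, 6016 (29.6%) higher and 8146 (40.1%) lower without NTBC. Called changes over 2-fold were found for 37.9% of genes, 3225 higher (15.9%) and 4477 lower (22%), and over 4-fold 1251 and 1377. A gene is said below to have risen or fallen only if it was called. For 12165 genes (59.9%) the values of the groups did not overlap, with every no-NTBC array above or every one below the full-dose arrays. With most genes called, the counts of a gene list are read against these shares. The median change of all genes was -0.14 on the log2 scale, and it was -0.41 with normexp background correction, 0.02 with quantile normalization and 0.01 in the deposited value table. Normexp also called fewer genes, 10736 (52.9%, with 17% of genes higher and 35.9% lower), of which 32.1% were higher, against 42.5% with the processed signal.

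The targeted genes came first. Fah read -3.36, -2.93, -2.87 and -3.09 on the no-NTBC arrays and -1.20, -0.81, -0.02 and -0.37 at full dose. It was above background on all 8, and the groups did not overlap. Whether its probe lies in the deleted part of the gene is not known here, so it does not check the labels. Its log2 fold change without NTBC was -2.46 ± 0.21 (SE, n = 4 arrays a group, adjusted p = 3.62e-10, limma). Trp53 was measured by 2 probes, and whether they lie in deleted exons is not known here. The brighter fell by 0.68 ± 0.14 without NTBC (adjusted p = 0.000142, limma), while the dimmer differed by 0.04 (adjusted p = 0.848). The dimmer read -2.71 and -2.75 in the p53-null groups without and with NTBC, and -0.56 and -1.37 in the corresponding Fah-/- groups.

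Cdkn1a read higher without NTBC in p53-null liver. It was at 3.77, 3.19, 3.07 and 3.16 without NTBC and at -2.98, -2.95, -2.43 and -3.36 at full dose. The groups were far apart, and the reduced-dose mean of 0.05 lay between them. The log2 fold change was 6.23 ± 0.43 (adjusted p = 9.88e-12), against 5.68 in Fah-/- mice with p53, and the difference between the genotypes was not called (adjusted p = 0.626). The same probe also read 3.09, 3.15, 3.57 and 3.15 without NTBC in Fah-/- p21-/- mice, in which Cdkn1a is the targeted gene. Whether it lies in the deleted part is not known here.

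**Figure D1:**
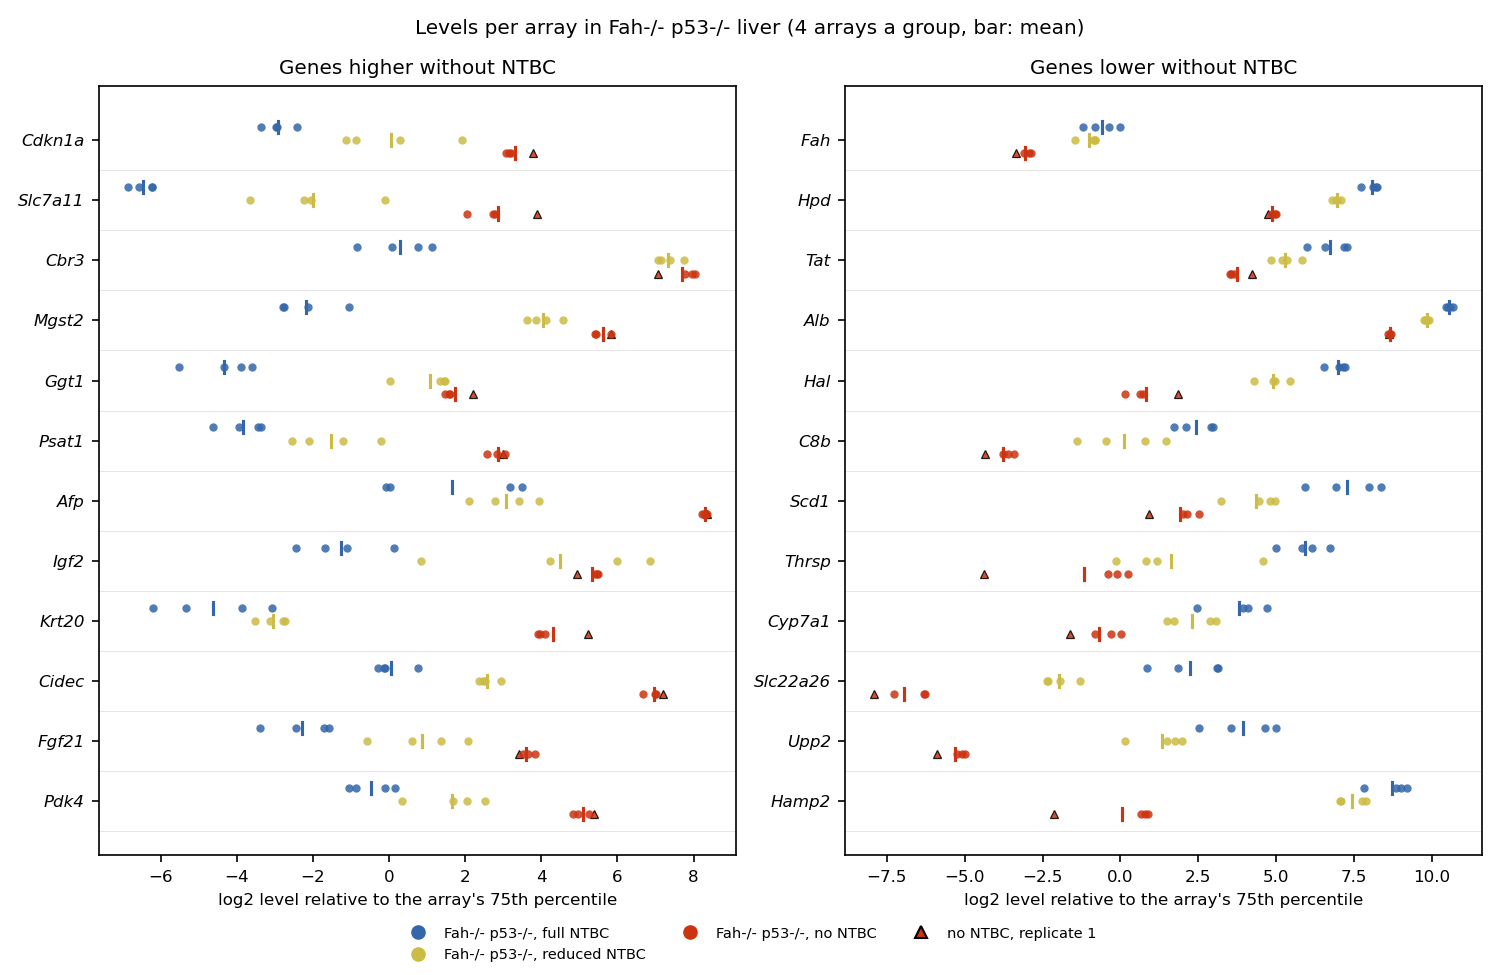
Log2 level relative to the array's 75th percentile (x axis) of 12 genes that were higher and 12 that were lower without NTBC, 1 point per array in the 3 Fah-/- p53-/- dose groups, with a bar at each group mean. In all 24 genes the reduced-dose mean lies between those of the other groups. Replicate 1 without NTBC (triangle) is farthest from its group for Thrsp, at -4.38, and Hamp2, at -2.13.

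The largest rises included genes of glutathione and carbonyl detoxification, keratins and a lipid droplet protein. Slc7a11, the cystine importer that feeds glutathione synthesis, was at 3.90, 2.04, 2.73 and 2.77 without NTBC and not well above background on any full-dose array. It was at least 320-fold higher, taken against the background level (15.2-fold with normexp, 36.3-fold in the deposited table), with an adjusted p of 1.38e-13. Mgst2, a microsomal glutathione transferase, rose by 7.81 ± 0.32 and the carbonyl reductase Cbr3 by 7.43 ± 0.32. Cbr3 was at 7.33 on the reduced dose already, close to its mean of 7.71 without the drug.

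Krt20, a keratin of gut and urothelium, was at 5.24, 3.91, 3.96 and 4.09 against -6.20, -5.33, -3.09 and -3.88 at full dose, a rise of 8.92 ± 0.64. The size of the Krt20 rise depended on the processing and was 5.17 to 9.43 over 21 other settings. Cidec, a lipid droplet protein, was at 7.19, 6.68, 7.0 and 7.0 against -0.14, -0.29, 0.75 and -0.10. Its rise of 6.91 ± 0.25 was larger than that of 4.95 in Fah-/- mice (adjusted p of the difference 0.00125). Both genes had arrays clearly apart. Sdcbp2, a syntenin, rose by 8.0 ± 0.31. Arhgdig was at least 113-fold higher (6.69-fold with normexp, 15.2-fold in the deposited table). Bmp8b, a bone morphogenetic protein, was at least 119-fold higher (6.64-fold and 14.0-fold) and the keratin Krt76 at least 76.8-fold higher (4.63-fold and 10.6-fold).

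Among the largest falls were secreted and metabolic products of mature hepatocytes. Upp2, a uridine phosphorylase, was at 2.52, 3.56, 4.65 and 4.99 at full dose and not well above background on any no-NTBC array. It was at least 605-fold lower (40.9-fold with normexp, 52.9-fold in the deposited table). Slc22a26, an organic anion transporter, was at least 409-fold lower (20.6-fold and 25.0-fold). Hamp2, a hepcidin, was at 7.81, 8.86, 9.01 and 9.20 at full dose and at -2.13, 0.79, 0.88 and 0.66 without, and fell by 8.68 ± 0.60. Without replicate 1, the lowest of its group, it fell by 7.95.

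Ces3b, a carboxylesterase, fell by 8.47 ± 0.47 and Cyp2c54, a P450, by 7.37 ± 0.56. Car3, a carbonic anhydrase, was at -3.41, 2.93, 2.48 and 2.67 without NTBC and at 8.31 to 9.08 at full dose. Replicate 1 again lay lowest, so that the fall of Car3 was 7.56 ± 1.09 with it and 6.04 without it, that of Cyp2c54 6.53 without it. The serum amyloid Saa2 fell by 8.47 ± 0.65 on 7 of the 8 arrays, since 1 full-dose spot was left out as an outlier. Its values at full dose spread from 4.98 to 8.97, and those without NTBC from -2.94 to -0.87. The urinary protein Mup3, a male-biased product, fell by 7.84 ± 0.92 (7.22 without replicate 1), and by 3.85 with the term for sex.

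**Figure D2:**
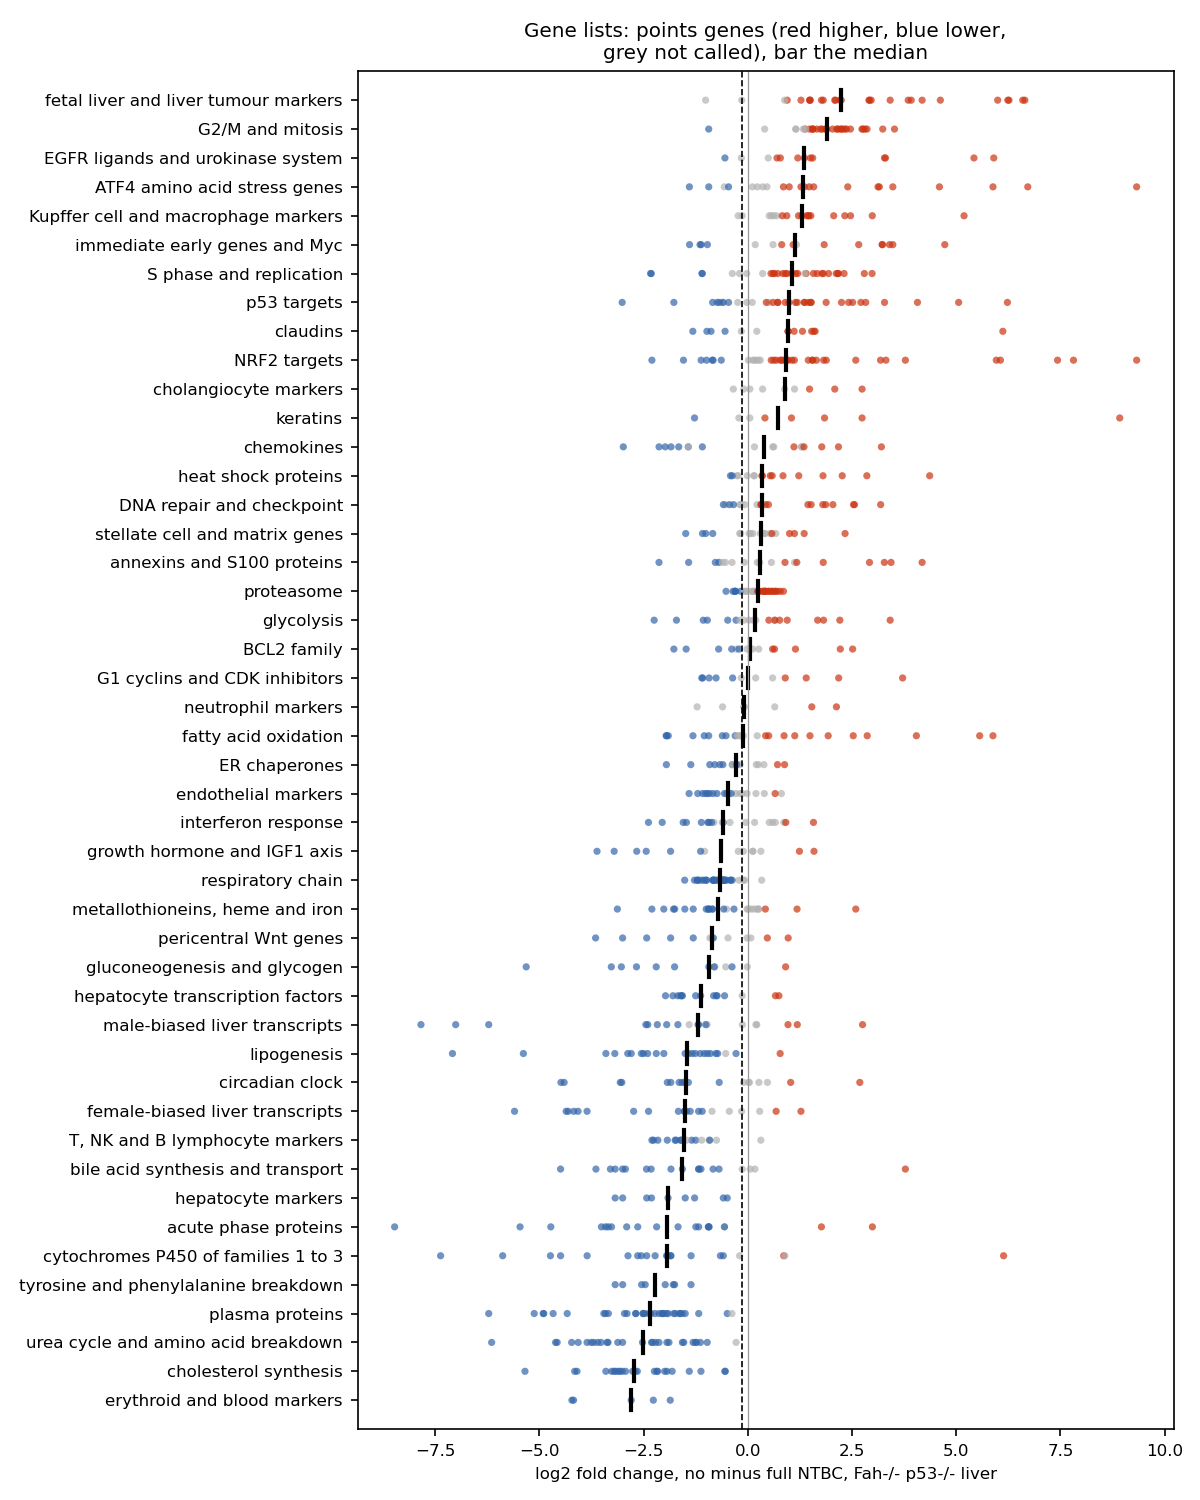
Log2 fold change without NTBC (x axis) of every measured member of 46 gene lists in Fah-/- p53-/- liver, red where called higher, blue where called lower and grey where not called, with a black bar at the list median. The dashed line is the median of all genes, -0.14. Cholesterol synthesis has all 24 points in blue, and fetal liver markers have 24 of 27 in red.

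The pathway that contains Fah was lower throughout. All 8 measured genes of phenylalanine and tyrosine breakdown fell by over 2-fold, with a median of -2.22 against -0.14 for all genes. Qdpr and Pcbd1, which recycle the pterin cofactor of the pathway, fell by 1.79 ± 0.17 and 1.36 ± 0.16. Tat, which takes the amino group from tyrosine, was at 4.24, 3.55, 3.52 and 3.65 without NTBC and at 5.99, 6.55, 7.26 and 7.17 at full dose. That fall of 3.00 ± 0.26 left no overlap. Hpd, the target of NTBC, was at 4.73, 4.86, 4.95 and 4.99 against 7.71, 8.20, 8.12 and 8.22. It fell by 3.18 ± 0.22 (adjusted p = 1.23e-11, limma), again with groups apart, and its reduced-dose mean was 6.95. The next enzymes, Hgd and Gstz1, fell by 1.76 ± 0.23 and 1.98 ± 0.14. The same 8 genes fell in Fah-/- mice, with a median of -1.79, and no difference between genotypes was called.

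Nitrogen and amino acid metabolism showed the same direction. In the list of urea cycle enzymes and amino acid catabolism, 28 of 29 measured genes fell, and 27 did so by over 2-fold (median -2.53). Cps1, the entry enzyme of the urea cycle, fell by 2.31 ± 0.21, Otc by 3.76 ± 0.32, Ass1 by 3.60 ± 0.30 and Arg1, which releases urea, by 1.94 ± 0.21. The Otc probes differed in size, from -3.76 to -1.08. Histidine breakdown fell most: Hal, its entry enzyme, was at 1.84, 0.73, 0.63 and 0.14 without NTBC and at 6.54, 7.03, 7.22 and 7.14 at full dose. Hal fell by 6.15 ± 0.36, and Uroc1 and Amdhd1, the next enzymes, by 4.61 ± 0.26 and 4.57 ± 0.30. Kmo, of tryptophan breakdown, was the member not called, at -0.28.

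Plasma proteins, made by hepatocytes for export, fell in 33 of 34 cases (median -2.35). Alb, albumin, was at 8.62, 8.67, 8.70 and 8.60 without NTBC and at 10.68, 10.59, 10.52 and 10.45 at full dose. The fall was 1.91 ± 0.10 (adjusted p = 6.72e-14, limma). Within each group Alb read lower the higher the array's 75th percentile, so its signal before scaling was nearly constant there. The narrow spread and small p thus follow in part from the scaling. Whether the spot was at its ceiling is not settled here, so the size of the fall is uncertain. In the deposited table the change of Alb was -0.11 and not called. F7, a clotting factor, fell by 4.90 ± 0.17, Itih1, an inter-alpha-trypsin inhibitor chain, by 5.12 ± 0.21, and C8b, of the complement attack complex, by 6.22 ± 0.43. Serpina6, the corticosteroid carrier, fell by 4.91 ± 0.41 (4.30 without replicate 1), against 1.49 in Fah-/- mice (adjusted p of the difference 0.000664). Fga, a fibrinogen chain, fell by 1.57 ± 0.19. Apoa1, of high density lipoprotein, fell by 0.49 ± 0.15, was not called with normexp or the term for sex, and was higher by 0.42 with quantile normalization and by 0.46 in the deposited table.

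Of 20 acute phase proteins, which the liver secretes in inflammation, 17 fell and 2 rose (median -1.93), and 11 and 10 fell with quantile normalization and in the deposited table. Saa1 was at 8.24, 4.34, 6.03 and 4.60 at full dose and at -0.30, 0.72, 0.56 and 0.36 without NTBC. Replicate 1 at full dose was the highest, and the groups stayed apart at a fall of 5.46 ± 0.53. The defining hepatocyte markers bear on all of these lists. All 9 measured markers fell, 7 of them by over 2-fold. Their summed signal, in units of the 75th percentile, was 686 to 751 without NTBC and 2540 to 2670 at full dose. Alb adds most to that sum, so it stands largely for 1 gene and shares the limit given for Alb above. In whole liver, fewer hepatocytes and less RNA of these genes per hepatocyte cannot be told apart.

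Of 15 transcription factors of hepatocytes, 12 fell and 2 rose, and most changes were smaller than those of the products (median -1.13). Cebpa was at 2.89, 2.66, 2.74 and 2.53 without NTBC and at 4.63, 4.76, 4.77 and 4.55 at full dose, a fall of 1.98 ± 0.17. Onecut1 fell by 1.8 ± 0.27. Hnf4a fell by 0.76 ± 0.12, and its probes gave -1.47 to -0.46. With normexp it was not called, at -0.28.

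Growth hormone signalling drives Igf1 output of the liver. Of its 14 measured genes 6 were lower and 2 higher (median -0.63), a share of lower genes near the 40.1% of all genes. The summed signal of the list was 320 to 376 without NTBC and 228 to 353 at full dose, so the falls below do not stand for the list. Ghr, the growth hormone receptor, was at 2.20, 2.09, 2.29 and 2.18 without NTBC and at 5.16, 5.48, 5.40 and 5.55 at full dose. The fall was 3.21 ± 0.14, and 3.54 in Fah-/- mice. Igfals, which stabilises Igf1 in plasma, fell by 3.62 ± 0.36. Igf1 itself was at 1.45 on replicate 1 and at 3.79 to 4.04 on the other no-NTBC arrays, against 5.59 to 6.35 at full dose, and fell by 2.67 ± 0.38, or 2.04 without that replicate.

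In cholesterol synthesis all 24 genes were lower, 22 of them by over 2-fold (median -2.73). Sterol regulatory element binding proteins switch these genes on when cellular sterol is low. Tm7sf2, a sterol reductase, was at 1.21, 1.46, 1.56 and 1.67 without NTBC and at 6.41, 6.55, 7.12 and 7.21 at full dose, a fall of 5.35 ± 0.23. Insig1, the sterol-sensing retention factor, fell by 4.15 ± 0.22, the sterol dehydrogenase Nsdhl by 4.10 ± 0.28 and Hmgcs1, at the entry of the pathway, by 2.65 ± 0.26. The same list had 20 of 24 genes lower in Fah-/- mice, with a median of -1.85.

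Only Hmgcs1, of 16 list members with a RefSeq promoter, had the sterol element TCACNCCAC on either strand within 250 bases upstream of a start, as did 1.3% of tested genes. It is shown as an example of the letters searched, in capitals, on the gene's strand with GRCm38.p6 coordinates, at chr13:119690188-119690248.
Hmgcs1: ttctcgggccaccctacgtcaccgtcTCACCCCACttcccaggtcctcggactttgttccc

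Fat synthesis fell as well, with 22 of 24 lipogenic genes lower and 1 higher (median -1.46). Scd1, which desaturates fatty acids, was at 0.93, 2.53, 2.02 and 2.15 without NTBC and at 5.91, 6.92, 8.36 and 7.98 at full dose. It fell by 5.38 ± 0.49, with no overlap. Fasn, fatty acid synthase, fell by 3.40 ± 0.30 and Srebf1, the factor that induces both, by 2.55 ± 0.21. Thrsp, a lipogenic nuclear protein, fell by 7.09 ± 0.90, or 6.01 without replicate 1.

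Fatty acid oxidation genes were split, 11 higher and 9 lower of 25, with a median of -0.11 that turned to 0.56 with quantile normalization, 0.59 in the deposited table and 0.35 with normexp. Pdk4, which diverts pyruvate from oxidation, was at 5.38, 4.82, 5.24 and 4.96 without NTBC and at 0.16, -0.11, -0.86 and -1.04 at full dose, a rise of 5.56 ± 0.45. Acot2, a mitochondrial thioesterase, rose by 4.04 ± 0.24 and Vnn1, a pantetheinase, by 2.87 ± 0.39. Respiratory chain genes were lower in 30 of 34 cases with a median of -0.66, a direction that rested on the scaling: the median was 0.03 with quantile normalization and 0.02 in the deposited table, with 7 and 8 genes lower.

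Of 22 cytochromes P450 of families 1 to 3, which oxidise drugs and steroids, 18 fell and 2 rose (median -1.94). Cyp1a1, a target of the aryl hydrocarbon receptor, was the exception in size. It was at 1.68, 3.43, 3.01 and 2.79 without NTBC and at -3.42, -3.55, -3.24 and -3.43 at full dose, a rise of 6.14 ± 0.31 (adjusted p = 1.00e-13). Of 19 genes of bile acid synthesis and transport, 15 fell and 1 rose (median -1.57). Cyp7a1, the rate-limiting enzyme of bile acid synthesis, was at -1.63, -0.32, -0.83 and 0.01 against 4.71, 2.45, 4.10 and 3.94. It fell by 4.49 ± 0.54, whereas its change in Fah-/- mice was -0.42 and not called (adjusted p of the difference 0.00172). Abcb11, the bile salt export pump, fell by 2.94 ± 0.26 and Slc10a1, the uptake carrier, by 2.43 ± 0.28. The member that rose was Abcc4, an exporter that removes bile acids to the blood and is also an NRF2 target.

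NRF2 is the factor that is activated by electrophiles and induces antioxidant and conjugating enzymes through antioxidant response elements. Of 39 measured targets 26 rose, 17 of them by over 2-fold, and 7 fell (median 0.92, against 1.11 in Fah-/- mice). The summed signal of the list, to which bright genes add most, did not rise. It was 3420 to 3950 without NTBC and 3830 to 5030 at full dose. Among transporters and glutathione enzymes, Abcc4 rose by 3.78 ± 0.28. Ggt1, which breaks down extracellular glutathione, was at 2.21, 1.57, 1.61 and 1.48 without NTBC and at -3.90, -5.53, -4.34 and -3.60 at full dose. It rose by 6.06 ± 0.38, less than the 8.83 in Fah-/- mice (adjusted p of the difference 0.00226, limma). Over the other settings tried the rise of Ggt1 was 2.775 to 6.309. Gpx2, a glutathione peroxidase, rose by 5.96 ± 0.61, with replicate 1 at 2.43 below the other no-NTBC arrays at 4.04 to 4.26. Gclc, which makes the glutathione precursor, rose by 1.82 ± 0.17.

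Among redox enzymes, Srxn1 (sulfiredoxin) rose by 3.18 ± 0.30, Hmox1 (heme oxygenase) by 2.59 ± 0.28, Txnrd1 (thioredoxin reductase) by 1.55 ± 0.15 and G6pdx, the first enzyme of the pentose phosphate pathway, by 3.31 ± 0.32. Nqo1, the classical quinone reductase, was at 3.13, 3.07, 2.97 and 2.76 against 0.95, 1.49, 1.90 and 1.78. The groups did not overlap, and the rise was 1.45 ± 0.20, against 2.43 in Fah-/- mice (adjusted p of the difference 0.0315, called in 19 of 31 settings tried). The reduced-dose mean of Nqo1, 2.90, was already near the 2.98 without the drug. The glutathione transferases Gsta3 and Gstm6, also on the list, fell by 1.54 ± 0.11 and 2.30 ± 0.20.

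The core letters TGACNNNGC of the antioxidant response element stood within 250 bases upstream of a RefSeq start in 10 of 34 members with a promoter (29.4%), against 13.7% of the 11633 tested genes with one. The members with the letters ranged from Ggt1 to Gsta3, so they included one that fell. The following windows of 61 bases, on the gene's strand in GRCm38.p6, show the match in capitals for 4 members that rose. All 4 matches read on the opposite strand. They are Ggt1 (chr10:75568600-75568660, plus strand, 1 of 4 listed starts), Abcc4 (chr14:118706220-118706280, minus strand, 1 of 2), G6pdx (chrX:74428903-74428963, minus strand) and Txnrd1 (chr10:82859088-82859148, plus strand, 1 of 3).
Ggt1: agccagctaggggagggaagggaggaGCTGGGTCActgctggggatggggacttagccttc
Abcc4: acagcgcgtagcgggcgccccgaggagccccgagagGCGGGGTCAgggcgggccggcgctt
G6pdx: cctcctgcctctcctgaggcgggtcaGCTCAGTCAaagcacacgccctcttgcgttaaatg
Txnrd1: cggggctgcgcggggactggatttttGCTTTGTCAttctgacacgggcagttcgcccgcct

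ATF4 is the factor induced by amino acid shortage and endoplasmic reticulum stress. Of 22 measured targets 14 rose and 3 fell (median 1.32). Asns, asparagine synthetase, was at 4.69, 4.28, 4.28 and 4.17 without NTBC and at -1.70, -1.74, 0.57 and 1.90 at full dose. The full-dose arrays spread widely, but the groups did not overlap, and Asns rose by 4.60 ± 0.66. In Fah-/- mice Asns started higher, at 4.54 ± 0.34 (SD, n = 4) at full dose, and its change of 1.14 was not called (adjusted p of the difference 0.0216).

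Psat1 and Phgdh, of serine synthesis, rose by 6.72 ± 0.44 and 3.12 ± 0.37. Fgf21, a hormone of fasting and stress, was at 3.40, 3.66, 3.82 and 3.51 against -1.59, -2.44, -1.72 and -3.38, a rise of 5.88 ± 0.57 that compared with 3.14 in Fah-/- mice (adjusted p of the difference 0.0348, called in 16 of 31 settings tried). Atf3, a stress-induced factor, rose by 3.48 ± 0.49. Chac1, which degrades glutathione, and the lipoprotein receptor Vldlr were not called, at -0.56 and 0.23. Chaperones of the endoplasmic reticulum did not follow: 2 of 17 rose and 9 fell, with a median of -0.27, and 2 fell with normexp.

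The amino acid response element letters TGATGNAA stood within 250 bases upstream of a start in 7 of 21 ATF4 list members with a promoter (33.3%), against 2.6% of tested genes. Chac1 and Vldlr were among the 7. Windows of the 4 members with the largest rises among them are shown on the gene's strand in GRCm38.p6, with each match in capitals. They are Slc7a11 (chr3:50443626-50443686, with a match on each strand), Fgf21 (chr7:45615595-45615655), Asns (chr6:7693210-7693270) and Atf3 (chr1:191183409-191183469), all on the minus strand.
Slc7a11: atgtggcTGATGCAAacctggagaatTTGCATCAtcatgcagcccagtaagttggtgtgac
Fgf21: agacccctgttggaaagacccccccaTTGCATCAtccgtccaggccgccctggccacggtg
Asns: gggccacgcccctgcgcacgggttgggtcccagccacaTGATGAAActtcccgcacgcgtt
Atf3: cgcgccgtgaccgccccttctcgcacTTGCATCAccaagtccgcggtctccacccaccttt

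Genes that the fetal liver expresses and that liver tumours often switch on again had the highest median of all lists, 2.24. Of 27 measured, 24 rose, 23 by over 2-fold, and none fell. Afp, alpha-fetoprotein, was at 8.34, 8.28, 8.35 and 8.23 without NTBC and at 0.03, -0.09, 3.49 and 3.18 at full dose. The full-dose arrays formed a low pair and a high pair, both far below the other group, and the rise was 6.65 ± 0.57. Igf2, the fetal growth factor, was at 4.93, 5.45, 5.49 and 5.42 against -1.69, -2.44, 0.14 and -1.10, and rose by 6.6 ± 0.80. H19, the imprinted RNA next to Igf2, rose by 6.24 ± 0.68. On the reduced dose Igf2 averaged 4.48 ± 2.67 (SD, n = 4) and H19 averaged 5.35, so most of their rise was present there.

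The proteoglycan Gpc3 rose by 6.27 ± 0.43, the surface protein Ly6d by 6.0 ± 0.40 and Cd24a, a progenitor surface marker, by 4.62 ± 0.40. For Cd24a this was more than the 2.38 in Fah-/- mice (adjusted p of the difference 0.0143). Dlk1, a hepatoblast marker, was at least 13-fold higher (1.35-fold with normexp, where it was not called, and 2.57-fold in the deposited table). S100a6, a calcium-binding protein, rose by 4.18 ± 0.43. The bile duct markers Krt19 and Sox9 rose by 2.74 ± 0.52 and 2.09 ± 0.43. The cholangiocyte list had 3 of 9 members higher, near the 29.6% share of all genes, and none lower (5 higher without replicate 1). Its summed signal of 30.9 to 53.6 without NTBC overlapped 31.8 to 42.5 at full dose.

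Injury and growth signals moved with these. Of 13 ligands of the EGF receptor and genes of the urokinase system 10 rose and 1 fell (median 1.36), and 6 rose with the term for sex. Plat, tissue plasminogen activator, was at 3.46, 3.17, 3.17 and 2.98 against -3.15, -2.68, -2.31 and -2.70, a rise of 5.90 ± 0.37. Plaur, the urokinase receptor, rose by 5.43 ± 0.32. Of 16 immediate early genes 9 rose and 4 fell (median 1.13): Fosl1 rose by 4.73 ± 0.49 and Myc by 3.40 ± 0.32. The rise of Fosl1 was 1.055 to 5.088 over the other settings tried. Cldn4, a tight junction claudin, was at least 28.5-fold higher (2.16-fold with normexp, 4.47-fold in the deposited table). Hspb1, a small heat shock protein, rose by 4.36 ± 0.34.

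Genes of mitosis and S phase were higher, with a wide spread between arrays. Among 32 mitotic genes, those of G2 phase included, 26 rose and 1 fell (median 1.89, and 1.53 in Fah-/- mice). The arrays of the groups did not overlap for 7 of the 32, a smaller share than the 59.9% of all genes. Cdk1, the mitotic kinase, was at -2.24, 1.38, 1.18 and 0.79 without NTBC and at -4.01, -3.98, -1.79 and -2.06 at full dose. Replicate 1 lay within the full-dose range, and the rise was 3.24 ± 0.74 (adjusted p = 0.000464), or 4.08 without that replicate. Ccnb1, cyclin B1, was at -4.67 on replicate 1 and at -1.04 to -0.13 on the others, and rose by 2.21 ± 0.88 (adjusted p = 0.0301), or 3.26 without it. It was not called in 10 of 21 settings, with the lowest value, 0.35, under normexp. The summed signal of the list was 14.6 to 109 without NTBC and 9.93 to 28.8 at full dose.

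Ect2, which positions the cleavage furrow, was at 1.13, 1.45, 1.63 and 1.37 against -2.74, -3.00, -1.33 and -1.43, and rose by 3.52 ± 0.39 with the groups apart. Aurka, a spindle kinase, rose by 2.81 ± 0.45 and the checkpoint kinase Bub1b by 2.74 ± 0.48 (0.38 and not called with normexp). The count of mitotic genes that rose was 13 with normexp (median 0.65), 16 in a fit to the compared groups alone, 16 or 17 without replicate 2 or 3 of the no-NTBC group or replicate 1 of the full-dose group, and 13 with the slide of no-NTBC replicates 1 and 2 alone.

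Of 31 genes of S phase 22 rose and 4 fell (median 1.05, and 0.42 in Fah-/- mice), and the change was more positive than in Fah-/- mice for 5. Cdt1, which licenses replication origins, was at 2.15, 3.12, 2.94 and 3.24 against 0.48, 0.61, 0.82 and 0.87. It rose by 2.17 ± 0.25, against 0.75 in Fah-/- mice (adjusted p of the difference 0.0142). Mcm2, of the replicative helicase, rose by 2.17 ± 0.27, Cdc45 by 2.79 ± 0.31 (0.11 and not called with normexp) and Cdc6 by 2.98 ± 0.60. With normexp Cdc6 was lower, at -0.14. Of 22 genes of DNA repair and checkpoints 13 rose and 3 fell (median 0.34), and 7 rose with normexp. The repair gene Brca1 rose by 2.56 ± 0.30. Chek1, a checkpoint kinase, was at least 6.43-fold higher (1.85-fold in the deposited table). With normexp its fitted change was -0.03, the opposite direction. Of 12 G1 cyclins and CDK inhibitors 4 rose and 5 fell (median 0.02), and 3 fell in a fit to the compared groups alone. These shares are near the 29.6% and 40.1% of all genes, so the list is not read as a change. Its member Cdkn2b, an inhibitor of G1 kinases, rose by 3.71 ± 0.43.

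The letters TTTGAA of the cell cycle homology region stood upstream of 9 of 27 mitotic genes with a promoter (33.3%, against 13.7% of tested genes). CCAAT stood upstream of 20 of the 27 (74.1%, against 39.5%). Both strands were searched over 250 bases. Cdk1 (chr10:69352913-69352973, minus strand) and Ect2 (chr3:27153958-27154018, minus strand, 1 of 2 listed starts) are shown in GRCm38.p6 with TTTGAA in capitals.
Cdk1: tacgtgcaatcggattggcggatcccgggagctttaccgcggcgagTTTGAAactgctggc
Ect2: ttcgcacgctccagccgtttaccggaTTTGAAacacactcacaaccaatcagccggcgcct

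The p53-null genotype makes the p53 targets a question of their own. Of 35 measured, 23 rose without NTBC, 17 by over 2-fold, and 7 fell (median 0.99, and 1.16 in Fah-/- mice with p53, where 23 also rose and 3 fell). With normexp 15 rose, with a median of 0.19. After Cdkn1a the largest rise was that of Psrc1, a spindle-associated protein, at 5.06 ± 0.57 (7.22 in Fah-/- mice). Over the other settings tried the rise of Psrc1 was 1.95 to 5.41. The death receptors Eda2r and Tnfrsf10b followed. Eda2r was at least 8.61-fold higher (1.89-fold in the deposited table), and its other probes went down to -0.32. Tnfrsf10b was at -2.01, -2.75, -2.90 and -3.00 against -6.41, -6.44, -4.89 and -6.04, a rise of 3.28 ± 0.35. With normexp the fitted changes of both were slightly negative, at -0.04 and -0.13.

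Apoptosis genes of the BCL2 family differed among themselves: of 14 measured, 5 rose and 5 fell (median 0.04). These shares are near the 29.6% and 40.1% of all genes. Pmaip1 (Noxa) rose by 2.52 ± 0.38 (0.60 and not called with normexp) and Bax by 1.14 ± 0.13. Bbc3 (Puma) was at 1.60, 1.49, 0.94 and 1.20 without NTBC and at 3.21, 3.38, 2.85 and 2.89 at full dose, a fall of 1.77 ± 0.17 with the groups apart. In Fah-/- mice the change of Bbc3 was -0.05 (adjusted p of the difference 7.04e-05). Among p53 targets outside that family, Dcxr, a xylulose reductase, fell by 3.02 ± 0.25, as it did in Fah-/- mice, by 2.39. Gtse1, a mitotic p53 regulator, rose by 2.71 ± 0.48, and with normexp was not called, at 0.04.

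A difference between the genotypes was called for 1850 of all genes (9.11%), 987 more positive without p53 (4.86%) and 863 more negative (4.25%). Among the 35 p53 targets it was called for 7, namely 6 more negative and 1 more positive. Phlda3, an inhibitor of Akt, was at 1.92, 3.06, 2.60 and 3.13 without NTBC and at 0.08, -0.54, 0.08 and -0.21 at full dose. Its rise of 2.83 ± 0.27 compared with 5.04 ± 0.27 in Fah-/- mice, from like levels at full dose (-0.15 ± 0.29 and -0.29 ± 0.20, SD, n = 4), and the difference was -2.21 ± 0.38 (adjusted p = 0.000673, limma).

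Ccng1, cyclin G1, rose by 1.51 and by 2.62 in the Fah-/- mice, with a difference of -1.11 ± 0.29. Mdm2, the ubiquitin ligase that restrains p53, rose by 1.46 against 2.08, a difference of -0.62 ± 0.17. Zmat3, an RNA-binding protein, rose by 1.19 against 2.37, and Polk, a translesion polymerase, by 0.99 (0.19 and not called with normexp) against 1.70. Those 5 genes thus rose in both genotypes and rose less in p53-null liver, while Bbc3 fell only there at the threshold used. By their transcripts the no-NTBC arrays were female in p53-null mice and male in Fah-/- mice, and the genotypes lay partly on different slides. Sex and slide therefore cannot be told apart from p53 in these differences. Over all genes, 605 differences were called with the term for sex in place of 1850. Ddb2, of nucleotide excision repair, rose more without p53, by 1.52 against 0.79, but that difference (0.73 ± 0.21, adjusted p = 0.0298) was called in 17 of 31 settings tried, against 26 to 30 for the other 6.

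**Figure D3:**
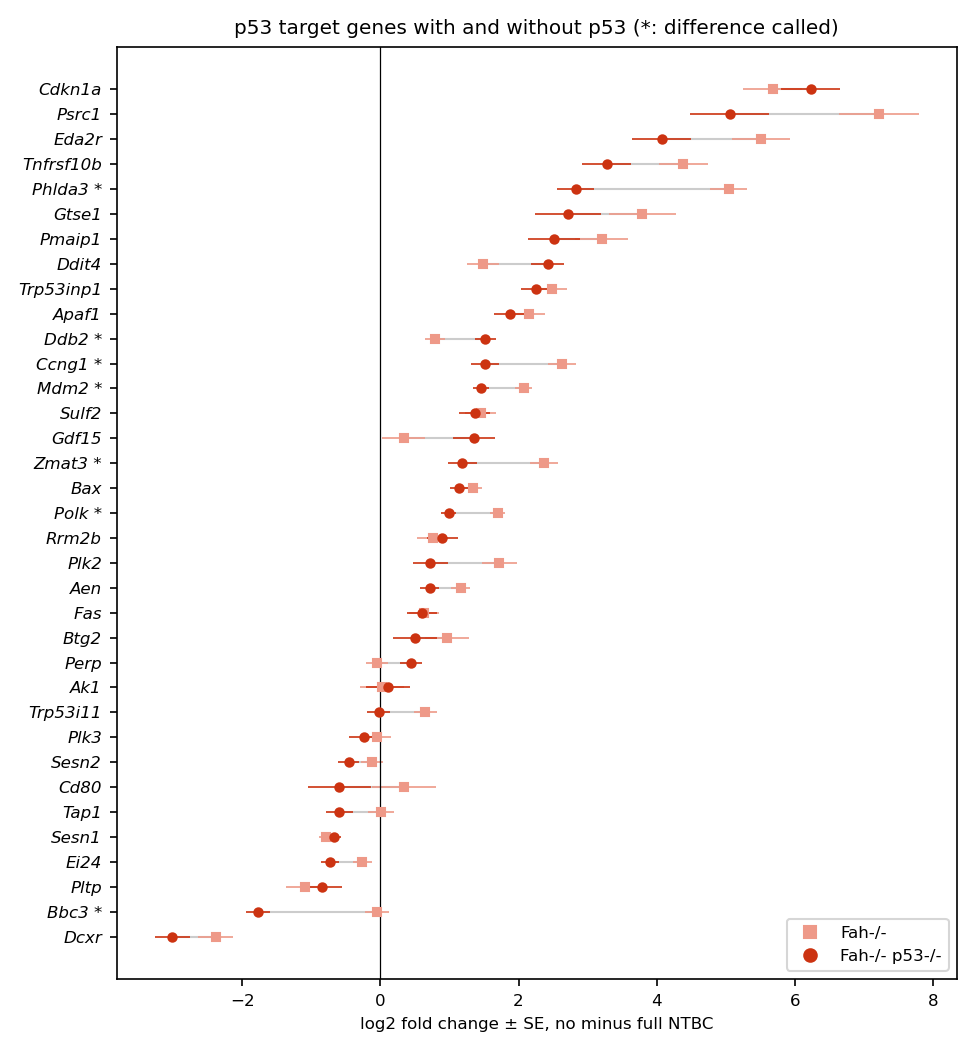
Log2 fold change without NTBC ± SE (x axis) of the 35 measured p53 targets in Fah-/- p53-/- (circles) and Fah-/- mice (squares), 4 arrays a group. A star marks the 7 genes whose difference between genotypes was called. Phlda3 has the widest gap among those, 2.83 against 5.04.

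Beyond these, most of the response was shared by the genotypes. In Fah-/- mice 14394 genes were called (70.9%), 5953 higher (29.3%) and 8441 lower (41.6%), and 38.4% by over 2-fold (16% higher, 22.4% lower). Of genes called in both, 4726 were higher and 6951 lower in both, and 182 went in opposite directions. The log2 fold changes had the same sign for 86.4% of genes and a Pearson correlation of 0.869 across the 20308 genes. The comparisons have no array in common, but genes are not independent replicates, and both run from full-dose arrays of 1 scan day to no-NTBC arrays of later days.

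**Figure D4:**
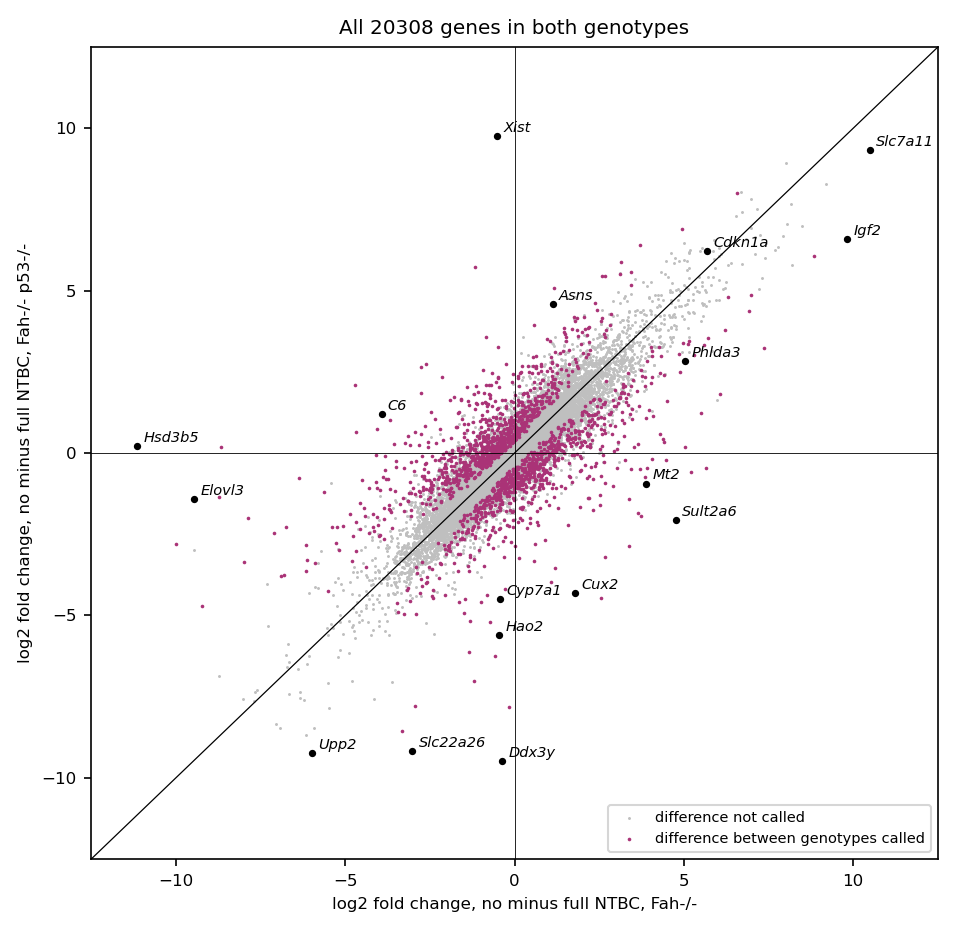
Log2 fold change without NTBC of 20308 genes in Fah-/- (x axis) and Fah-/- p53-/- mice (y axis). Genes whose difference was called are purple, named genes are black, and the diagonal marks equal changes. Hsd3b5 (0.21 against -11.14) and Elovl3 (-1.41 against -9.46) lie far above the diagonal, and Cux2 (-4.31 against 1.79) and Sult2a6 (-2.07 against 4.75) far below it.

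Among the largest differences were transcripts that male and female livers express unequally under growth hormone control. Of 19 male-biased transcripts, 11 fell and 3 rose (median -1.20), against 17 lower and none higher in Fah-/- mice (median -2.62). The difference was more positive for 9 and more negative for none. Hsd3b5, a male steroid dehydrogenase, was at -5.90, -4.43, -4.43 and -4.29 without NTBC and at -4.99, -5.41, -5.20 and -4.30 at full dose. These ranges overlapped, and the change of 0.21 ± 0.78 was not called (adjusted p = 0.814). In Fah-/- mice Hsd3b5 went from 5.82 ± 0.31 at full dose to -5.32 ± 1.74 (SD, n = 4).

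Elovl3, a male-biased elongase, was at -5.31, -4.38, -4.66 and -4.28 without NTBC and at -1.45, -1.22, -3.98 and -6.34 at full dose. It was not called either (adjusted p = 0.163), and fell by 9.46 in Fah-/- mice, from 4.54 ± 0.39. Thus Hsd3b5 and Elovl3 were already low in p53-null males on the full dose. C6, of complement, rose by 1.19 ± 0.24 and fell by 3.93 in Fah-/- mice. Cyp4a12a, a male-biased P450, rose by 2.75 ± 0.62 with overlapping arrays (1.33 to 3.29 against -2.38 to 1.71) and fell by 2.62 in Fah-/- mice. Both started lower in p53-null liver: at full dose C6 averaged -0.65 against 3.94 and Cyp4a12a -0.26 against 6.98.

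Female-biased transcripts mostly fell too, but their difference between genotypes went the other way. Of 21, 15 fell and 2 rose (median -1.52), against 7 lower and 7 higher in Fah-/- mice (median -0.45), and 12 were more negative than in Fah-/- mice. Cux2, a female-specific repressor, was at -4.56, -4.34, -4.79 and -4.59 without NTBC and at 0.17, -0.40, -0.79 and -0.04 at full dose. It fell by 4.31 ± 0.47 and rose by 1.79 in Fah-/- mice, where it averaged -6.12 ± 0.27 at full dose. Hao2, a hydroxy acid oxidase, fell by 5.60 ± 0.71 (4.75 without replicate 1) from 2.37 to 2.71 at full dose, while Fah-/- livers averaged -4.57 there.

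A1bg, a plasma glycoprotein, was at least 10.6-fold lower (2.66-fold with normexp, 1.8-fold in the deposited table). At full dose it was above background on 3 of the 4 arrays and averaged -2.95, against -6.32 in Fah-/- mice. The sulfotransferase Sult2a6 fell by 2.07 ± 0.70 from a mean of 7.17 and rose by 4.75 in Fah-/- mice from -3.73. Its fall was not called without replicate 1 (-1.54, adjusted p = 0.057, limma) or with quantile normalization (-1.31). At full dose, where the mice of both genotypes were male by Ddx3y, the p53-null means of Hsd3b5, Elovl3, C6 and Cyp4a12a thus lay below those of Fah-/- mice and the means of Cux2, Hao2, A1bg and Sult2a6 above them, a contrast between slides that was not tested. The no-NTBC p53-null mice were female, and the part of sex in these differences cannot be told apart from that of dose. With the term for sex 605 differences between genotypes were called in place of 1850.

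**Figure D5:**
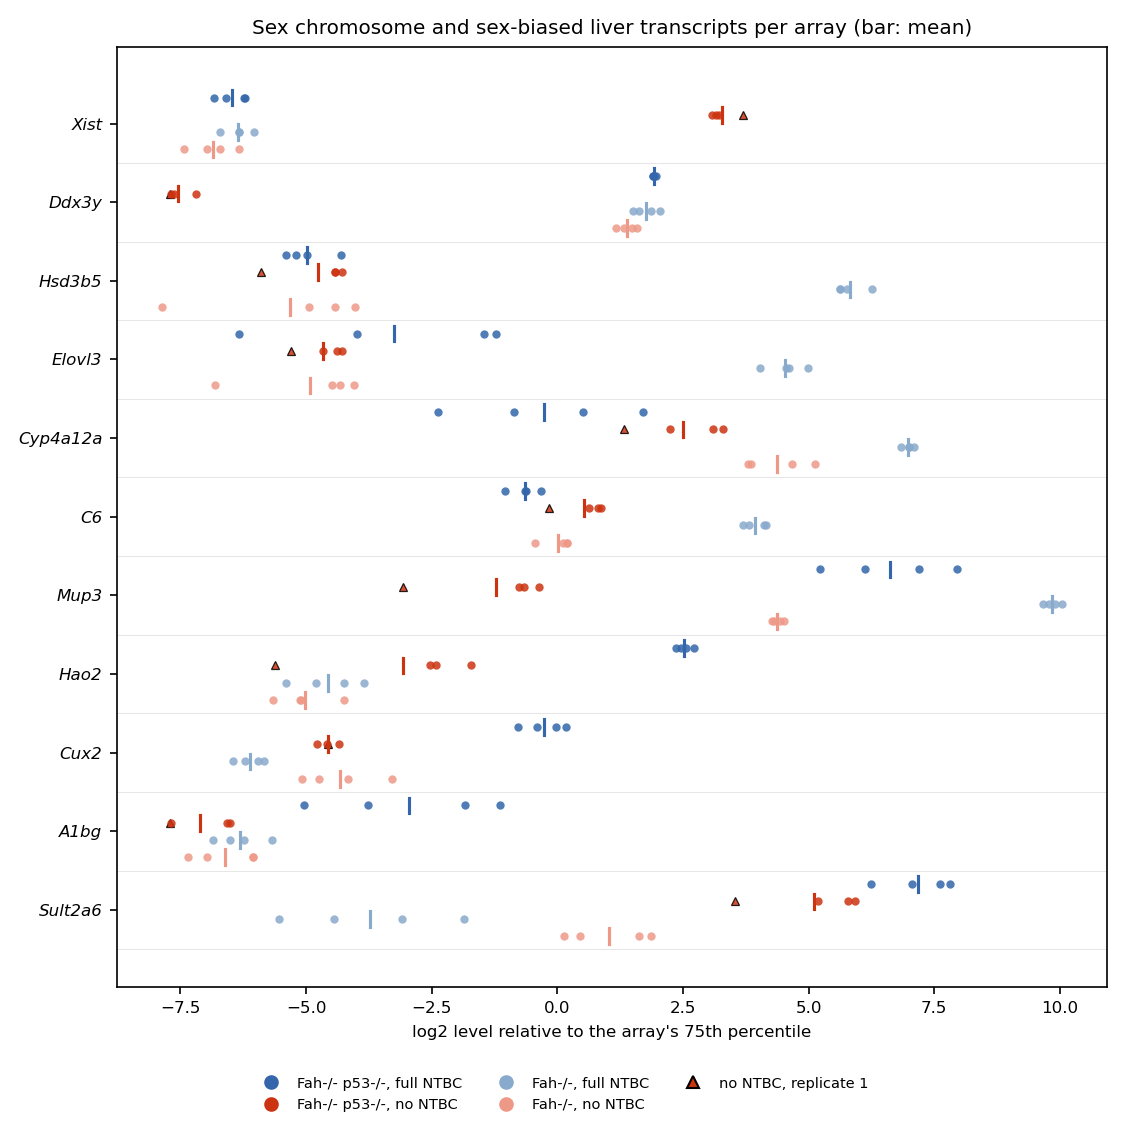
Log2 level relative to the array's 75th percentile (x axis) of Xist, Ddx3y and 9 other transcripts, 1 point per array with a bar at the mean, in the Fah-/- p53-/- and Fah-/- groups at full dose and without NTBC, with p53-null replicate 1 without NTBC as a triangle. Full-dose Fah-/- p53-/- arrays read about as low as no-NTBC arrays for Hsd3b5 (means -4.98 and -4.76), while full-dose Fah-/- arrays average 5.82.

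Metallothioneins, which bind zinc and copper, went in opposite directions in p53-null and Fah-/- liver. Mt1 was at 5.82, 7.05, 6.83 and 6.66 without NTBC and at 8.58, 7.27, 8.37 and 9.15 at full dose, a fall of 1.75 ± 0.33, against a rise of 2.31 in Fah-/- mice. For Mt2 the arrays overlapped (7.0 to 7.92 against 7.68 to 9.18). It fell by 0.94 ± 0.29, was 0.12 higher with quantile normalization and 0.14 higher in the deposited table, was not called with normexp or the term for sex, and rose by 3.88 in Fah-/- mice. The differences of -4.06 ± 0.46 and -4.82 ± 0.41 were called in all 31 settings tried. Without NTBC the levels of both genotypes were alike, with Mt1 at 6.59 ± 0.54 and 6.32 ± 0.43, while at full dose the p53-null mice read 8.34 ± 0.79 and Fah-/- mice 4.01 ± 0.27 (SD, n = 4). Esm1, an endothelial proteoglycan, fell by 2.86 ± 0.90 with overlapping arrays (3.64 without replicate 1) and rose by 3.38 in Fah-/- mice. Its fall was not called in a fit to the compared groups alone or with the term for sex.

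Clock genes, whose level depends on the hour of sampling, fell in 11 of 18 cases and rose in 2 (median -1.47). Dbp was at 3.08, 3.06, 2.34 and 2.45 against 6.62, 6.92, 7.49 and 7.52, a fall of 4.41 ± 0.59, and Per3 fell by 4.48 ± 0.46. Arntl (Bmal1), which peaks opposite to these, rose by 2.69 ± 0.44. The labels place the experiments in the light phase without giving the hour, and the part of sampling time was not tested.

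Markers of other liver cells were compared last. Of 19 Kupffer cell and macrophage markers 13 rose and none fell (median 1.30), and their summed signal was 143 to 302 without NTBC and 65.3 to 112 at full dose. Gpnmb, of lipid-laden macrophages, was at -2.57, 0.92, 0.37 and 1.07 against -6.57, -6.56, -2.94 and -4.89. It rose by 5.19 ± 1.18 (6.03 without replicate 1), with groups apart but a wide spread, and was not called with normexp or with the term for sex (adjusted p = 0.23). Trem2, a receptor of such macrophages, rose by 2.99 ± 0.79 (not called with the term for sex), the scavenger receptor Marco by 2.33 ± 0.78, the lysosomal Cd68 by 2.06 ± 0.42 and Cd5l by 1.46 ± 0.32.

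Lymphocyte markers fell in 11 of 16 cases and rose in none (median -1.54, against 2 higher and 4 lower in Fah-/- mice). Cd3e, of the T cell receptor, was at -3.55, -3.30, -3.21 and -3.19 against -1.07, -0.96, -1.26 and -1.32, a fall of 2.16 ± 0.14. Cd4 fell by 2.26 ± 0.18 and the B cell marker Ms4a1 by 2.30 ± 0.41 (1.70 without replicate 1). Endothelial markers fell in 11 of 20 cases and rose in 1 (median -0.48), and 6 of the 20 had a more negative change than in Fah-/- mice. With normexp or the term for sex 6 fell, near the shares of all genes lower in those settings, 35.9% and 32.7%. The median with the term for sex was -0.04. Kdr, the VEGF receptor, fell by 1.41 ± 0.15.

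All 5 measured red cell markers fell (median -2.80), among them Hba-a1, a globin, by 4.18 ± 0.58 and Alas2, of heme synthesis, by 4.22 ± 0.35. Their summed signal was 2.65 to 6.32 without NTBC and 69.2 to 97.4 at full dose. Matrix and stellate cell genes rose in 5 of 20 cases and fell in 4 (8 rose without replicate 1, 2 with the term for sex and none with a 2-fold minimum), with sums of 126 to 231 against 121 to 165. Neutrophil markers rose in 2 of 7 cases, and in none with normexp. The counts of the matrix, neutrophil and cholangiocyte lists were near or below the shares of all genes, 29.6% higher and 40.1% lower. They are therefore not read as shifts in cell content. Nor is the endothelial count, which was near the share of all genes with normexp or the term for sex. The part of any such shifts in the other lists was not tested.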

How the data were processed

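Liver RNA was labelled with Cy3 and hybridised to 1-colour Agilent arrays, per the labels' protocols. The deposited scanner files hold intensity values made with Agilent Feature Extraction 10.7.3.1, per the file headers (10.5, per the submitters' processing notes): a processed signal, background-subtracted and detrended within each array, median spot and background intensities, and other columns of quality flags. A deposited value table gives log2 values; no scaling by the authors is given in these sources, its array medians were 6.89 to 6.912, and it correlated with the log2 median intensity at 0.9895 to 0.9994.

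From these, log2 processed signal minus each array's 75th percentile was computed. Of 41174 probes, 27516 were kept, each well above background throughout 1 or more of the 7 groups. Control spots and 2525 outlier spot values were left out. A gene took its brightest kept probe, which left 20308 genes, 14578 with a symbol; 1130 called genes had probes of opposite sign. A mean per group was fitted to 28 arrays in limma 3.58.1 (R 4.3.3), with Benjamini-Hochberg adjustment and a threshold of 0.05. The fit was tested on simulated data. A gene not well above background throughout one group has a bound ("at least") against the lowest detected signal. Promoters (RefSeq, GRCm38.p6) were searched over 250 bases upstream.

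Members and lists were chosen with earlier results of these data known. Genes were named if targeted, among the 15 largest rises or falls with non-overlapping arrays, among up to 6 called members of a list with the smallest adjusted p or its enzyme steps, among the 5 largest differences between genotypes in each direction, or as cell type or sex chromosome markers. Of 154 genes so described, 43 lay outside this rule and were chosen after their values were seen. The alternatives were normexp (offset 50, on the median intensities), quantile normalization, the deposited table, other probe filters, the mean of a gene's probes, other variance models, a 2-fold minimum, a term for sex, slide as a random block, single slides, a replicate block and each replicate left out. Some items are not reported here.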

Additional observations from a re-analysis of the deposited data

Results flagged for a closer look

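On some genes a single array lay far from the other 3 of its group, by a gap that chance gives in about 1 of 20 groups. Most of these values were of replicate 1 without NTBC. It read high for Krt20 (5.24) and Per3 (-4.46) and, for detoxification and other genes, low for Gpx2 (2.43), Gstm6 (-0.09), Zmat3 (0.33), Hgd (2.52), Pcbd1 (5.77) and Mt2 (7.0). Among cell cycle genes it was the low array for Cdk1 (-2.24), Cdc45 (-2.46), Chek1 (-3.30) and Gtse1 (-3.20). It was also the low array for Hamp2 (-2.13), Car3 (-3.41), Mup3 (-3.07), Cyp2c54 (-7.88), Thrsp (-4.38), Hsd3b5 (-5.90), Igf1 (1.45), Prlr (-0.59), Ms4a1 (-6.47), Atf3 (0.16), Igf2 (4.93), Ly6d (6.02) and Sox9 (-1.50). Replicate 3 without NTBC lay apart for Gstz1 (3.98) and for Ddx3y (-7.19) and Kdm5d (-7.07), which were below background there. At full dose the separate arrays were replicate 3 for Srxn1 (3.91), replicate 1 for Akr1d1 (-0.68) and replicate 4 for Marco (3.85) and Krt19 (-2.44). Across the 154 genes described, 13 moved by over 1.5-fold when replicate 1 without NTBC was left out.

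The change without NTBC differed between Fah-/- p53-/- and Fah-/- mice in the test of the difference for the following genes, with the log2 difference of the changes, p53-null minus Fah-/-. Among p53 targets it was -2.21 for Phlda3, -1.73 for Bbc3, -1.18 for Zmat3, -1.11 for Ccng1, -0.71 for Polk, -0.62 for Mdm2 and 0.73 for Ddb2. Among stress and growth genes it was 3.46 for Asns, 2.75 for Fgf21, -2.35 for Vldlr, -2.77 for Ggt1, -0.98 for Nqo1, 2.23 for Cd24a, 1.42 for Cdt1, 1.44 for Sdcbp2, -6.24 for Esm1, -4.06 for Mt1 and -4.82 for Mt2. Among metabolic and secreted products it was 1.97 for Cidec, 2.13 for Pdk4, -1.0 for Insig1, -4.07 for Cyp7a1, -1.96 for Akr1d1, -1.15 for Uroc1, -3.42 for Serpina6, -3.26 for Upp2 and -6.16 for Slc22a26. The difference was -3.02 for the clock gene Per3, -1.87 for the prolactin receptor Prlr and -1.88 for Ms4a1. Some of these were called in few of the settings tried: Upp2 in 9 of 30, Insig1 and Uroc1 in 11 of 31, Akr1d1 in 12 of 31, Ms4a1 in 12 of 30, Pdk4 and Fgf21 in 16 of 31, Ddb2 in 17 of 31, Sdcbp2 in 17 of 30 and Nqo1 in 19 of 31. The other differences listed in this section were called in 25 or more.

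Among sex-biased transcripts the difference was 11.35 for Hsd3b5, 8.05 for Elovl3, 5.37 for Cyp4a12a, 5.11 for C6, -6.82 for Sult2a6, -6.10 for Cux2, -5.14 for Hao2 and -3.88 for A1bg. For sex chromosome transcripts it was 10.26 for Xist, -9.11 for Ddx3y, -7.67 for Eif2s3y, -5.65 for Kdm5d and -3.86 for Uty.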

How the results depend on the processing

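The count of genes called without NTBC in p53-null liver, 14162, was 21608 with no filter on dim probes and 4093 with a 2-fold minimum, and 10736 to 14266 under the other alternatives that kept all arrays. In Fah-/- mice the count of 14394 was 22528 and 4092 under the first pair. The 1850 differences between genotypes became 239 with normexp, 74 with a 2-fold minimum, 605 with the term for sex and 1134 with the slide of no-NTBC replicates 1 and 2 alone. Leaving out 1 replicate at a time gave 13608 to 14182 genes in p53-null liver, 13667 to 14020 in Fah-/- liver and 1416 to 2283 differences. Replicate numbers did not pair the arrays (correlations of deviations -0.123 to 0.135), and with the replicate number as a block the counts were 14266, 14477 and 2033.

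Of 154 genes described, 150 were called, and 119 of these were called in the same direction in every setting. The change had the opposite sign with normexp for Eda2r (-0.042), Tnfrsf10b (-0.13), Cdc6 (-0.14), Chek1 (-0.03) and Hsd3b5 (-0.89), with quantile normalization for Apoa1 (0.42) and Mt2 (0.12), and in the deposited table for Apoa1 (0.46) and Mt2 (0.14). With the term for sex it was 0.57 for Elovl3, -0.27 for Xist, 0.35 for Eif2s3y and -0.21 for Vldlr. Vldlr gave -0.025 to 0.405 when replicates were left out, and Hsd3b5 -0.19 with the slide of no-NTBC replicates 1 and 2 alone. With the term for sex Ccnb1 (adjusted p = 0.0819), Apoa1, Mt2, Trem2, Esm1 and Gpnmb were not called in limma, and in the deposited table Alb (-0.11) and Gsta3 (-0.26) were not. The causes were not tested. With 4 arrays a group and dim genes near background, fold sizes of low genes are the least certain values.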
